A study of Mus musculus with 8 samples.

Results

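Genes for serpins, Slpi, Timps, Kunitz inhibitors, cystatins and other WAP domain proteins were followed as a set of protease inhibitors in mouse mammary epithelial cells. Members were chosen by the gene names printed on the array (Serpin of clades a to i, Timp1 to Timp4, Slpi, Spint1 to Spint3, Cst and Wfdc genes), with the polyadenylation factors named Cstf left out. The array carried 97 such genes, read by 123 oligos, of 30222 gene names in all. Of these, 46 genes were bright enough to be measured, against 17331 measured genes in the whole table. One of the 46, Cstad, matched the name rule although it does not belong to a protease inhibitor family; it is counted with the set.

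Expression was profiled in 8 samples of NMuMG-NT2197, a line derived from the NMuMG mouse mammary epithelium and known from earlier work to carry an activated Neu (ErbB2) oncogene. All samples had received the pMSCV/hygro retroviral expression vector, in 4 of them with a cDNA of wild-type ShcA and in 4 with the R175Q form, in which arginine is replaced by glutamine. ShcA is an adaptor that docks on activated receptor tyrosine kinases, and R175Q lies in its PTB domain, which binds phosphotyrosine. Per the labels' protocols, total RNA in nanogram amounts went through 2 rounds of linear amplification before each sample was labelled with Cy3 and hybridized beside a Cy5 reference. The labels name that reference as mouse in 1 field and as human in another, and they describe the RNA as microdissected although the material was a cultured line. They do not say whether the cells' own ShcA was removed, whether each group is 1 transfected pool or clone, or whether replicates came from separate cultures. The p-values therefore measure only the spread between these samples, which may be technical.

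Most secreted and cytoplasmic proteases are held in check by a few inhibitor families. Serpins offer a reactive loop as bait and trap the serine protease that cuts it, although some members have lost this activity. Slpi and its WAP domain relatives and the Kunitz inhibitors block serine proteases reversibly, Timps block metalloproteases, and cystatins block the cysteine cathepsins. In the mammary gland these proteins limit remodelling of the matrix and the activation of growth factors such as HGF.

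All values are log2 ratios of Cy3 (sample) over Cy5 (reference), so a level of 0 equals the reference and only differences between arrays of the same gene are compared. A difference is R175Q minus wild type, the value after ± is its standard error in limma's fit with n = 4 arrays per group, and a gene passed when its p, adjusted by Benjamini-Hochberg over all 17331 genes, lay under 0.05. The share of spots well above background in Cy3 ran from 53.7% to 63.0% over the arrays, no spot was saturated, and arrays correlated at 0.987 to 0.995 within R175Q, 0.981 to 0.996 within wild type and 0.970 to 0.980 between the groups. Shc1 itself differed by -0.12 ± 0.10 (limma adjusted p = 0.497). Whether its oligo reads the cell's own transcript, the introduced cDNA or both was not determined. The epithelial marker Cdh1 was present in both groups, with a difference of -0.01 ± 0.10. Krt7 (-1.91), Krt19 (-0.40) and Krt8 (-0.21) were lower in R175Q, and 4 of the 7 measured epithelial markers did not pass. The mean over 7 of 9 epithelial markers ran from 0.40 to 0.52 in wild type and from -0.02 to 0.05 in R175Q. Krt7 moved most, and the median difference of the 7 was -0.21. Over 8 of 9 fibroblast and pericyte markers the mean ran from -6.64 to -6.47 in wild type and from -6.25 to -6.01 in R175Q, with Pdgfrb, Dcn, Col1a2 and Col3a1 higher and Lum not well above background on any array. None of 5 hepatocyte markers was well above background on any array, and of the 10 measured macrophage and neutrophil markers 0 were higher and 1 was lower. Of 6 endothelial markers 3 were measured and 1, Vwf, was higher, by 0.84 ± 0.11, while Cdh5, Tek and Emcn were not well above background on any array. The part of these shifts in the results on protease inhibitors was not tested. Fewer cells of a type and less RNA per cell cannot be told apart in such bulk samples.

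Of the 46 measured genes of the set, 12 were higher in R175Q and 7 were lower, and 27 did not pass. The called share was 41.3%, against 18.7% of all genes tested, of which 8.76% were higher and 9.92% lower. The 2 groups of arrays did not overlap for 18 of the 46 genes (39.1%), against 23.4% of all genes. The median difference of the set was 0.09, against -0.02 over all genes, with a range from -0.89 for Serpinb2 to 2.00 for Serpina3m. Among the serpins, clade A had 2 of 10 measured genes higher, clade B had 6 of 16 higher and 2 lower, and clades C to I had 1 of 6 higher and 3 lower. In the WAP family 2 of 5 were higher, the only measured Kunitz inhibitor was lower, 1 of 3 Timps was higher and 1 of 4 cystatins was lower. The other 51 genes were not measured, 36 of them without a single array well above background, and no difference is given for them.

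**Figure D1:**
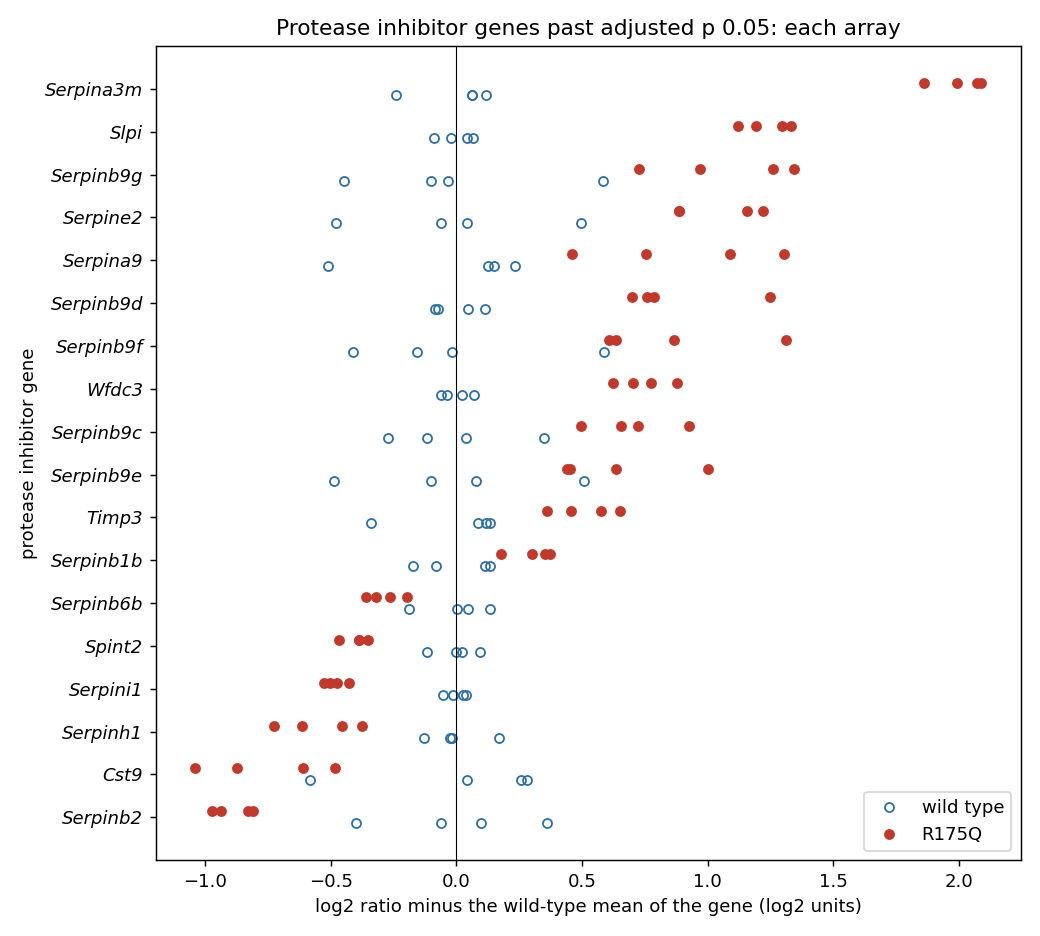
Protease inhibitor genes that passed the threshold, 18 of the 19, are plotted by array, with each log2 ratio given relative to the gene's own wild-type mean (x axis, log2 units) and filled points for R175Q, open points for wild type. Serpina3m and Slpi show the widest gaps between the groups, while Serpinb9e and Cst9 have an array of one group within the range of the other.

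The oligos that carry the 2 highest differences and the cluster of Serpinb9 copies on chromosome 13 are shown first, since it matters for the cluster whether separate oligos read separate transcripts. Each line gives 30 of the 60 bases of the oligo, 5′ to 3′ as on the array. Capitals mark a stretch that is identical between the oligos of Serpinb9f and Serpinb9g.
Serpina3m, chr12:105632110-105632139, plus strand: tatggccaaagtcactaaccccaagtgaac
Slpi, chr2:164179879-164179908, minus strand: ttactgttttaccactaacatctccttttg
Serpinb9c, chr13:33241232-33241261, minus strand: ggactaccatgttctccatgcttttgttga
Serpinb9d, chr13:33295749-33295778, plus strand: gcttaaatggatcttttcctcacatttcct
Serpinb9e, chr13:33352399-33352428, plus strand: gggtgaggactgctacttttattttcctgg
Serpinb9f, chr13:33427047-33427076, plus strand: GAGTCCTCTAACAAATGGCCATTTCTATCT
Serpinb9g, chr13:33587676-33587705, plus strand: GAGTCCTCTAACAAATGGCCATTTCTATCT
Positions follow the array files and are in mm9; whether an oligo lies in coding sequence or a UTR was not determined, as no gene model of that build was used. The longest run of bases shared by the Serpinb9f and Serpinb9g oligos was 41 of 60, and by every other pair among Serpinb9, 9c, 9d, 9e, 9f and 9g it was 5 to 8. Serpinb9f and Serpinb9g are therefore reported as uncertain, since the 2 oligos may read each other's transcripts. Among the Serpina1 oligos the longest shared run was 47 bases (Serpina1a and Serpina1c), among the Serpinb6 oligos 26 bases (Serpinb6a and Serpinb6c), and among the Serpina3 oligos 6 bases. Cross-reading between copies was not tested against transcripts.

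Slpi, a secreted inhibitor of neutrophil elastase and cathepsin G made by many epithelia, was higher in R175Q. Its log2 ratio was -0.52, -0.45, -0.31 and -0.35 in R175Q replicates 1 to 4, and -1.60, -1.67, -1.73 and -1.58 in wild-type replicates 1 to 4. Every R175Q array lay above every wild-type array by about a full log2 unit, and within each group the arrays were close together. The difference was 1.23 ± 0.07, or 2.35-fold (limma adjusted p = 2.9e-06). On the 3 slides that held both groups it was 1.15, 1.38 and 1.23.

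Wfdc3, a less studied WAP domain protein encoded near Slpi on chromosome 2, was also higher. Its level was 0.72, 0.90, 0.79 and 0.64 in R175Q and -0.02, -0.04, 0.09 and 0.04 in wild type. The groups were far apart on this gene, with a difference of 0.74 ± 0.07, and a second Wfdc3 oligo gave 1.07 ± 0.09, both past the threshold. Wfdc2, a WAP protein of secretory epithelia also known as HE4, was well above the reference in both groups and differed by 0.14 ± 0.07 without passing (limma adjusted p = 0.194). Wfdc12 and Wfdc13 differed by 0.11 and -0.01 and did not pass either. Wfdc1 was well above background on 4 wild-type and 2 R175Q arrays, but was left out because the scanner software had flagged its value on at least 1 array.

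Slpi and Wfdc3 lay at chr2:164179849-164179908 and chr2:164568530-164568589. Between and around them the 9 other measured sequences of that stretch included no higher gene, and 2 lower ones, Gm10725 and Pigt. Over all genes tested 8.76% were higher and 9.92% lower, so counts among 9 sequences are too small to set this stretch apart. In a description over the 8 arrays, the genes with the highest Pearson correlation to Slpi were Rnu3b1 (0.998), Smoc2 (0.996), Tlr2 (0.995), Gm8995 (0.994) and C3 (0.994). Since the 8 arrays fall into the 2 groups for Slpi, such an r mostly restates a difference between the groups and carries no test.

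Serpina3m, one of the mouse copies related to antichymotrypsin, had the largest difference of the set. Its log2 ratio was 2.50, 2.58, 2.60 and 2.37 in R175Q replicates 1 to 4 and 0.57, 0.62, 0.27 and 0.57 in wild-type replicates 1 to 4. The lowest R175Q array stood far above the highest wild-type array. The difference was 2.00 ± 0.09, or 4.01-fold (limma adjusted p = 1.05e-06), and 2.01, 2.15 and 1.80 within the 3 slides.

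Serpina9, known as centerin from germinal centre B cells, was higher as well. Its level was 2.11, 2.32, 1.48 and 1.77 in R175Q and 1.25, 1.17, 0.51 and 1.14 in wild type, with R175Q 3 and wild type 3 lowest in their groups. The groups did not overlap, and the difference was 0.90 ± 0.20 (limma adjusted p = 0.0118). Of the 8 B-cell and other lymphocyte markers listed, 4 were measured and 0 were higher or lower, and the B-cell marker Ms4a1 was not well above background on any array.

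The other 8 measured clade A genes did not pass, with differences from -0.30 (Serpina1d) to 0.16 (Serpina3g). They include Serpina1a, Serpina1c, Serpina1d and Serpina1e, copies of the elastase inhibitor of the liver. The oligos of Serpina1a, Serpina1c and Serpina1e share runs of 29 to 47 bases, while that of Serpina1d shares only 4 or 5 with them. The brighter and dimmer oligos of Serpina1e gave -0.10 and 0.03. Serpina11 was read by oligos that disagreed in their call, at 0.06 and 0.36, the latter past the threshold. All 10 clade A genes lay within 629 kb of chromosome 12, and the 2 higher ones, Serpina9 and Serpina3m, were separated by Serpina3b, Serpina3g and Serpina3h, with differences of 0.05, 0.16 and -0.05.

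**Figure D2:**
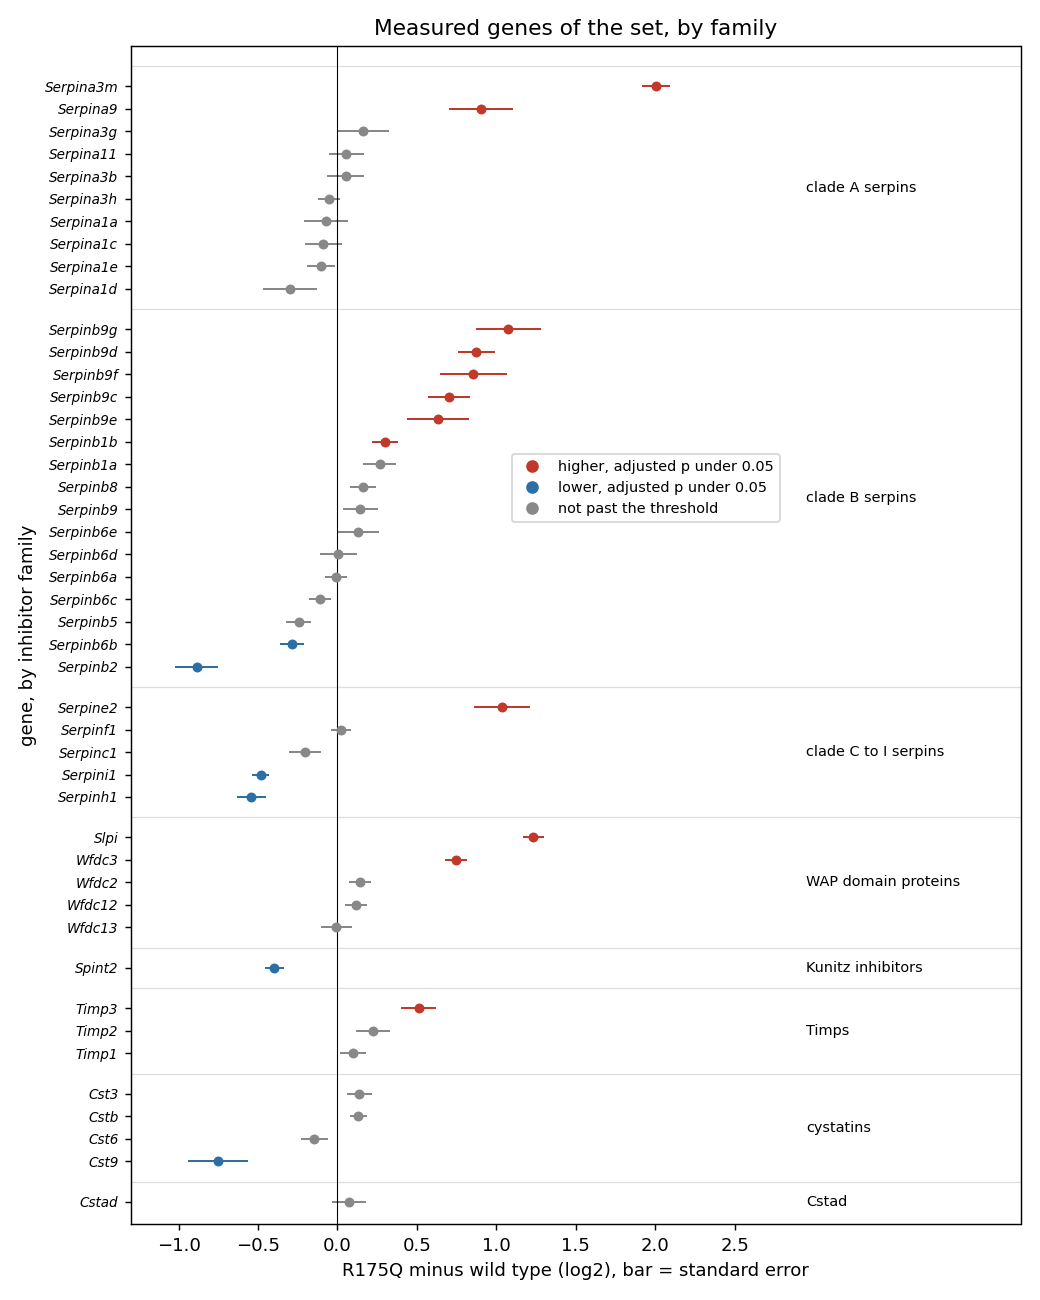
Differences between R175Q and wild type (x axis, log2; bars are standard errors) are shown for 45 of the 46 measured genes, grouped by inhibitor family. Red genes were higher, blue genes lower and grey genes did not pass; clade B holds 6 red and 2 blue genes, and the WAP family holds 2 red genes.

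Clade B serpins act mostly inside cells. Serpinb9 is the inhibitor of granzyme B, and the mouse carries several further copies beside it in a cluster on chromosome 13. The copies Serpinb9c, 9d, 9e, 9f and 9g were all higher in R175Q, and Serpinb9 itself did not pass. Serpinb9f and 9g are counted here as separate genes, although their oligos may read each other's transcripts. Of the higher copies, only Serpinb9d kept its call when the log ratios were scaled between arrays.

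For Serpinb9g the log2 ratio was 3.75, 4.00, 4.37 and 4.29 in R175Q and 2.92, 2.58, 3.61 and 2.99 in wild type. For Serpinb9d it was 1.61, 1.52, 2.07 and 1.58 in R175Q and 0.87, 0.75, 0.74 and 0.94 in wild type. Neither gene's groups overlapped, although R175Q 3 stood above the other R175Q arrays for Serpinb9d. The differences were 1.08 ± 0.21 for Serpinb9g (limma adjusted p = 0.0051) and 0.87 ± 0.12 for Serpinb9d (limma adjusted p = 0.000603).

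Serpinb9f read 2.86, 2.88, 3.56 and 3.11 in R175Q and 2.23, 1.84, 2.83 and 2.09 in wild type. Its lowest R175Q array and its highest wild-type array nearly met, and the difference was 0.86 ± 0.21 (limma adjusted p = 0.0197). Serpinb9c read 1.68, 1.91, 2.12 and 1.84 in R175Q and 1.07, 0.92, 1.54 and 1.23 in wild type, a difference of 0.70 ± 0.13. Serpinb9e read 2.32, 2.30, 2.87 and 2.50 in R175Q and 1.76, 1.38, 2.37 and 1.94 in wild type. In Serpinb9e the groups overlapped by wild type 3, the difference was 0.63 ± 0.20 (limma adjusted p = 0.0491), and a second oligo gave 0.38 ± 0.19 without passing. The call on Serpinb9e was lost when any array but wild type 3 was left out, with adjusted p up to 0.124, and that on Serpinb9f without wild type 2 (0.0515) or wild type 4 (0.0552).

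Serpinb9 read 2.07, 2.03, 2.27 and 2.11 in R175Q and 2.06, 1.63, 2.08 and 2.13 in wild type. Apart from wild type 2 the arrays of both groups lay side by side, and the difference was 0.14 ± 0.11 (limma adjusted p = 0.432). Among the wild-type arrays, wild type 2 was lowest and wild type 3 highest for Serpinb9c, 9e, 9f and 9g, and also for Serpine2. Serpinb9d had wild type 3 as its lowest array.

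Serpinb1b, a copy of the neutrophil elastase inhibitor Serpinb1, was slightly higher, at 0.83, 0.76, 0.81 and 0.63 in R175Q and 0.38, 0.28, 0.59 and 0.57 in wild type. The groups were separated by a small margin, the difference was 0.30 ± 0.08 (limma adjusted p = 0.0301), and the call was lost without R175Q 1, 2 or 3 or wild type 1 or 2 (adjusted p 0.0659 to 0.0868). Serpinb1a, the closer counterpart of the human gene, differed by 0.26 ± 0.10 and did not pass (limma adjusted p = 0.106).

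Along chromosome 13 the 6 higher genes were neighbours among the measured members of the set. Serpinb1b, 9c, 9d, 9e, 9f and 9g lay between chr13:33185999-33186058 and chr13:33587669-33587728, in a cluster of 13 measured members spanning 1075 kb. On one side lay Serpinb1a, Serpinb6b and Serpinb9, of which Serpinb6b was lower and the others did not pass. Serpinb6d, 6e, 6c and 6a lay on the other side with differences of 0.00, 0.13, -0.11 and -0.01. Of 3 other measured sequences in the cluster 0 passed, against 18.7% of all genes, too few to compare. A sequence with no gene name, at chr13:33212915-33212974, lay between Serpinb1b and Serpinb9c and differed by -0.13 ± 0.10. Another, between Serpinb1a and Serpinb6b, differed by 0.48 ± 0.15 (limma adjusted p = 0.057), and Gm6093 differed by -0.29 ± 0.14.

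**Figure D3:**
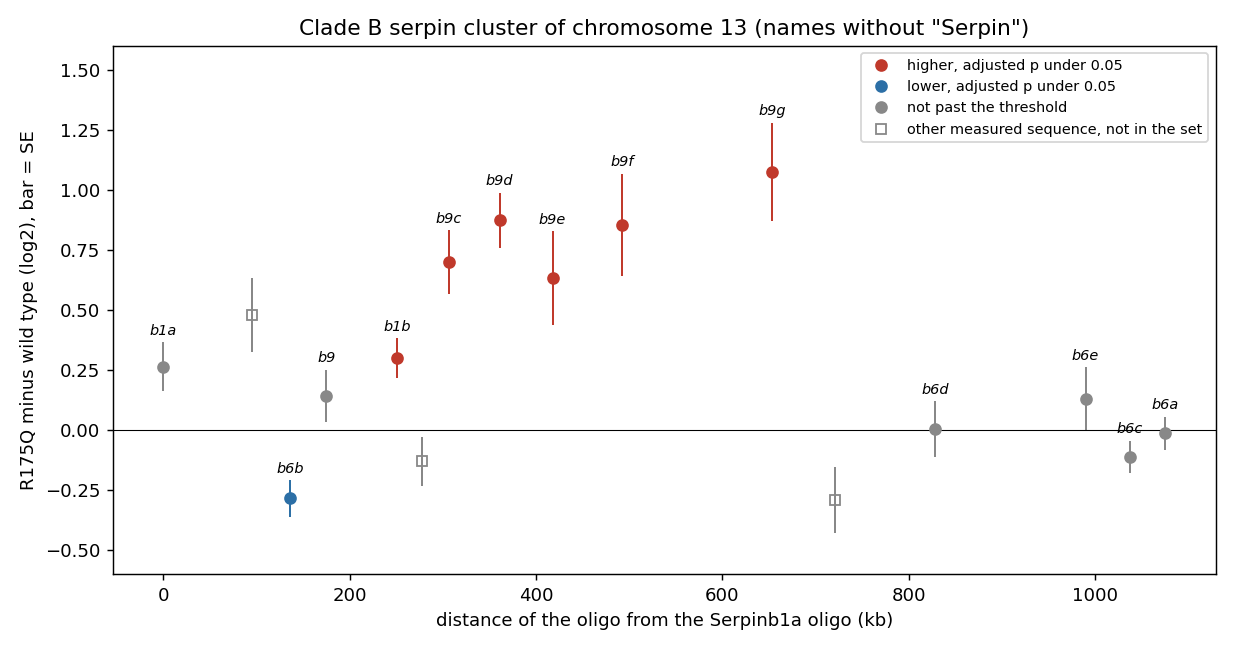
Difference between R175Q and wild type (y axis, log2; bars are standard errors) is plotted against the distance in kb of each oligo from that of Serpinb1a along chromosome 13. The 6 red genes from Serpinb1b to Serpinb9g are neighbours among the members of the set (round points), with differences of 0.30 to 1.08. An open square, a measured sequence outside the set, lies between Serpinb1b and Serpinb9c. The Serpinb6 genes at the far end lie near 0.

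As these copies moved together, their upstream sequences were compared. RefSeq's promoter table (GRCm38.p6) held 38 of the 46 measured genes, and the 250 bases before each annotated start were used. Aligned end to end, the windows of Serpinb9d, 9e, 9f and 9g were 80.8% to 92.9% identical in their 6 pairs. Serpinb9 matched the same windows at 46.7% to 48.0%, and Serpinb9g matched 26 members on other chromosomes at 46.5% to 53.2%. The windows of Serpinb9c, for which the table lists 2 starts, matched them at 49.7% to 64.4%. In the lines below, capitals in Serpinb9d, 9e and 9f mark bases that differ from, or have no partner in, Serpinb9g; in Serpinb9 they mark a match to an interferon response repeat, described next.
Serpinb9g, chr13:33484540-33484789, plus strand: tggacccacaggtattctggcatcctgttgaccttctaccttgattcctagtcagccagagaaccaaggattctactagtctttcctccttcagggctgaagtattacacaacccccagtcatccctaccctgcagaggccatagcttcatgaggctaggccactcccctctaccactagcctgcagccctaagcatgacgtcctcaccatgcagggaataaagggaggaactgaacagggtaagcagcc
Serpinb9e, chr13:33249358-33249607, plus strand: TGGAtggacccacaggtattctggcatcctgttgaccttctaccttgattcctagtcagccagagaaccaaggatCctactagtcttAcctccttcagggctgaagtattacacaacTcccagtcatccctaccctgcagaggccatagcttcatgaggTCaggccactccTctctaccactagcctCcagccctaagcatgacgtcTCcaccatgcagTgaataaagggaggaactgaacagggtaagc
Serpinb9f, chr13:33323827-33324076, plus strand: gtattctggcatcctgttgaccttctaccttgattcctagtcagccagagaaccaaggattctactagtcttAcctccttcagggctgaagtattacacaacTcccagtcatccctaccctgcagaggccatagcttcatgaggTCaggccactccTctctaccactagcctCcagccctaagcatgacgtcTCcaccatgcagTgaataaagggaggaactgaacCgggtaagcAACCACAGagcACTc
Serpinb9d, chr13:33192705-33192954, plus strand: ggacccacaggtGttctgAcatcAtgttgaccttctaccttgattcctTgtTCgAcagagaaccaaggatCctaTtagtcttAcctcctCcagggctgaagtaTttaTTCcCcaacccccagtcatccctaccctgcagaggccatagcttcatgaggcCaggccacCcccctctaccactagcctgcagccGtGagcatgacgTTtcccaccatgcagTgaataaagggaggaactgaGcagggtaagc
Serpinb9, chr13:33004291-33004540, plus strand: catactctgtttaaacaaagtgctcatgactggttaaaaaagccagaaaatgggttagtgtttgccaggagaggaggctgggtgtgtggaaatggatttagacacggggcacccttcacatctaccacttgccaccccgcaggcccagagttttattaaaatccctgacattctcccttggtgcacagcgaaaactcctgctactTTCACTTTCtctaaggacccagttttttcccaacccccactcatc
These coordinates are GRCm38.p6 and are not to be set beside the mm9 positions above. The windows were searched on both strands for 4 motifs. The first was the promoter box TATAAA, present in 12.4% of all 32851 windows of the table. The second was the AP-1 motif TGANTCA, present in 6.75%. The third was TTCNNNGAA, the GAS element of STAT factors, present in 7.02%. The last was GAAANNGAA, a repeat found within interferon response elements, present in 7.13%. No window of Serpinb9d, 9e, 9f or 9g held any of the 4, and 1 of the windows of Serpinb9c held a GAS match. The GAS motif was present in 5 of 38 members (13.2%), namely Serpinb9c, Serpinb2, Serpinb6a, Serpina3g and Serpina11. Members are counted by gene, with a match in any of its windows, while the shares over the whole table are by window. The 2 kinds of share are therefore not directly comparable. Serpinb9 held the interferon response repeat, as did Serpinb6a, where it overlaps a GAS match, and Serpina3b, 3 of 38 members (7.89%) in all. A match is a description of the letters and not a bound site, and its absence says only that those letters are not in the window.

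Serpinb2, the clade B inhibitor of urokinase and a gene known for strong induction by inflammation, had the largest fall. Its log2 ratio was 1.08, 1.22, 1.11 and 1.24 in R175Q and 2.15, 1.65, 2.41 and 1.99 in wild type. All wild-type arrays were higher than all R175Q arrays, and the wild-type arrays were the more scattered. The difference was -0.89 ± 0.14, or 1.85-fold lower (limma adjusted p = 0.00145), and -0.93, -0.92 and -0.75 within the 3 slides. The window of the first Serpinb2 start in the table held both TATAAA and the AP-1 motif, in capitals here.
Serpinb2, chr1:107511173-107511422, plus strand: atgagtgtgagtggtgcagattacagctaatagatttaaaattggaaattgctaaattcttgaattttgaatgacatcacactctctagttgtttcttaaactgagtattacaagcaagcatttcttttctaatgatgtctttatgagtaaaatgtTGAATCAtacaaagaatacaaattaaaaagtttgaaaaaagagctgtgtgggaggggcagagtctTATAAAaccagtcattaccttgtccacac
The TGANTCA motif was present in 6 of the 38 members (15.8%, counted by gene), namely Serpinb2, Serpinb5, Serpinb8, Serpina1a, Serpina1c and Serpina1d. The Serpina1 genes among them are copies of each other and do not count as separate cases.

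Serpinb5, or maspin, a serpin of mammary epithelium that does not trap proteases, lay on chromosome 1 like Serpinb2. It read 3.98, 4.03, 3.86 and 3.75 in R175Q and 4.27, 4.03, 4.12 and 4.17 in wild type. The lowest wild-type array was only just above the highest R175Q array, and the difference of -0.24 ± 0.08 missed the threshold (limma adjusted p = 0.056). It passed with slide as a fixed block (-0.28, adjusted p = 0.0476) or a random block (-0.25, 0.0401), without wild type 2 (-0.28, 0.0458), in the deposited table (-0.35, 0.00703) and in Cy3 alone (-0.87, 7.7e-05). Serpinb8, the nearer neighbour of Serpinb2, differed by 0.16 ± 0.08 and did not pass. Serpinb6b was lower by a small amount, at 0.94, 0.90, 1.07 and 1.00 in R175Q and 1.27, 1.07, 1.40 and 1.31 in wild type. The lowest wild-type and the highest R175Q array nearly met. Its difference was -0.28 ± 0.08 (limma adjusted p = 0.0277), and the call was lost without R175Q 1, 2 or 4 or wild type 1 or 4 (adjusted p 0.0572 to 0.0845). Serpinb6a, a cytoplasmic inhibitor present in many tissues, differed by -0.01 ± 0.07.

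Serpine2, protease nexin, which blocks thrombin and urokinase at cell surfaces, was higher, at 3.54, 3.53, 3.87 and 3.81 in R175Q and 2.59, 2.17, 3.14 and 2.69 in wild type. The groups did not overlap, and wild-type arrays spread over about a log2 unit. The difference was 1.04 ± 0.18, or 2.05-fold (limma adjusted p = 0.00265), and 0.95, 1.21 and 1.11 within the 3 slides.

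Serpinh1, a collagen chaperone of the endoplasmic reticulum with no inhibitory activity, was lower. Its level was -0.54, -0.43, -0.27 and -0.19 in R175Q and 0.16, 0.05, 0.17 and 0.35 in wild type. The groups were apart, with a difference of -0.54 ± 0.09 (limma adjusted p = 0.00249). The collagen markers Col1a2 and Col3a1 were higher in the same arrays, by 0.58 and 0.39, and Col1a1 differed by 0.08 ± 0.12 without passing.

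Serpini1, or neuroserpin, an inhibitor of tissue plasminogen activator, was lower too. It read -0.58, -0.56, -0.53 and -0.48 in R175Q and -0.02, -0.03, -0.11 and -0.07 in wild type, with little spread within either group. The difference was -0.48 ± 0.05 (limma adjusted p = 0.000197), and a second oligo gave -0.45 ± 0.08, also past the threshold. The oligo that stands for the gene was well above background on 3 R175Q and 4 wild-type arrays. The scanner's own ratio gave -1.06, and a background fitted to each array's own spots gave -0.29 with the call lost. Serpinc1, antithrombin, and Serpinf1, the secreted factor PEDF, differed by -0.21 ± 0.10 and 0.02 ± 0.06 and did not pass. The 2 oligos of Serpinf1 differed in sign, at 0.02 and -0.05. Serping1, the C1 inhibitor, was well above background on 3 arrays and was not measured.

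Spint2, a membrane Kunitz inhibitor of matriptase and of the HGF activator, was lower in R175Q. It read 0.74, 0.62, 0.70 and 0.70 in R175Q and 1.11, 0.97, 1.18 and 1.09 in wild type. No array of one group came near the other group. The difference was -0.40 ± 0.06, or 1.32-fold lower (limma adjusted p = 0.00155), and a second Spint2 oligo gave -0.34 ± 0.06, also past the threshold. Spint1, its close relative, was well above background on 2 wild-type arrays and 0 R175Q arrays, and was not measured.

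Timp3, the Timp that stays bound to the matrix and also blocks ADAM proteases, was higher. Its level was -4.02, -3.93, -3.81 and -3.73 in R175Q and -4.25, -4.72, -4.27 and -4.30 in wild type. The groups did not overlap, and wild type 2 lay below the rest. The difference was 0.51 ± 0.11, or 1.43-fold (limma adjusted p = 0.0105). Timp2 and Timp1, the soluble members, differed by 0.23 ± 0.11 and 0.10 ± 0.08 without passing, and Timp4 was not well above background on any array.

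Among cystatins, Cst9 was lower, at 0.93, 0.80, 0.54 and 0.37 in R175Q and 1.67, 1.70, 0.83 and 1.46 in wild type. Wild type 3 overlapped the R175Q arrays. The difference was -0.75 ± 0.19 (limma adjusted p = 0.0214), and it rested on a dim oligo that was well above background on 7 of 8 arrays. Its call was lost without R175Q 3 or 4 or wild type 1, 2 or 4 (adjusted p 0.054 to 0.0623). Cst3 (cystatin C) and Cstb, broad inhibitors of cathepsins, differed by 0.14 ± 0.08 and 0.13 ± 0.05, and Cst6, the epithelial cystatin M, by -0.15 ± 0.08; none of the 3 passed. Cstad differed by 0.07 ± 0.11.

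The proteases that these inhibitors block, with their receptors and a few further inhibitors, formed a list of 82 genes, of which 49 were measured. In R175Q 13 were higher and 7 lower, 40.8% in all against the 18.7% of all genes, with a median difference of 0.01. In plasminogen activation and clotting 3 of 10 were higher and 1 was lower. Plau, the urokinase that Serpine2 and Serpinb2 block, read -2.05, -1.99, -1.72 and -1.97 in R175Q and -2.38, -2.53, -2.15 and -2.43 in wild type. Its groups did not overlap and it was higher by 0.44 ± 0.10 (limma adjusted p = 0.0109). Tissue plasminogen activator (Plat) and the urokinase receptor (Plaur) differed by -0.18 ± 0.11 and 0.03 ± 0.06 and did not pass. Lrp1, which takes up serpin-protease complexes, was higher by 0.61 on its brightest oligo, and its other 2 oligos gave 0.13 and 0.21 without passing. F7, a clotting protease, was higher by 0.69, but its brightest oligo was well above background on 4 R175Q arrays and on only 1 wild-type array, so it entered the test through the group where it is high. F2rl1, a receptor that proteases activate by cutting, was lower by a difference of -0.66.

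Metalloproteases, the targets of Timps, had 3 of 14 measured genes higher and 1 lower. Mmp2, a gelatinase, read -3.11, -3.06, -2.73 and -2.84 in R175Q and -4.75, -4.92, -4.54 and -4.77 in wild type. That gap was the widest of the protease list, with a difference of 1.81 ± 0.10, or 3.51-fold (limma adjusted p = 3.65e-06). Mmp3 (stromelysin) and Adamts4 (an aggrecanase) were higher by 0.97 ± 0.21 and 0.73 ± 0.10, although a second Adamts4 oligo gave 0.35 ± 0.16 without passing. Mmp23 differed by -0.29 ± 0.09. Mmp14, the membrane protease that activates Mmp2, differed by 0.23 ± 0.09 and did not pass.

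Of cysteine proteases, the targets of cystatins, Ctsb (cathepsin B) was higher by 0.62 ± 0.10, Ctsc was lower with a difference of -0.40 ± 0.05, and Ctsl differed by -0.01 ± 0.13, with 6 of 8 not passing. Among the proteases that Spint2 blocks and their HGF pathway, the tryptase-like Prss22 was higher by 0.40 and the HGF activator Hgfac was lower at -0.30. St14 (matriptase) and the HGF receptor Met differed by -0.06 ± 0.08 and 0.07 ± 0.07 without passing, and Hgf was not measured. Elane, the neutrophil elastase that Slpi and Serpinb1 block, was the only leukocyte serine protease of 7 to be measured and differed by 0.01 ± 0.07.

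Other secreted serine proteases had 4 of 7 genes higher and 1 lower. The complement proteases C1s and C1ra were higher by 1.20 ± 0.08 and 0.47 ± 0.06, and a second C1ra oligo gave 0.37 ± 0.15 without passing. Prss23 was higher by 0.62 and Htra1 by 0.28, and Prss35 was lower at -1.34 ± 0.09. Of the genes listed with the further inhibitors, Agt, a serpin by structure only, was higher by 0.45, and Itih2 and the clotting inhibitor Tfpi were lower at -0.28 and -0.37. The 3 Tfpi oligos did not run one way, as 1 of them gave 0.15 without passing.

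**Figure D4:**
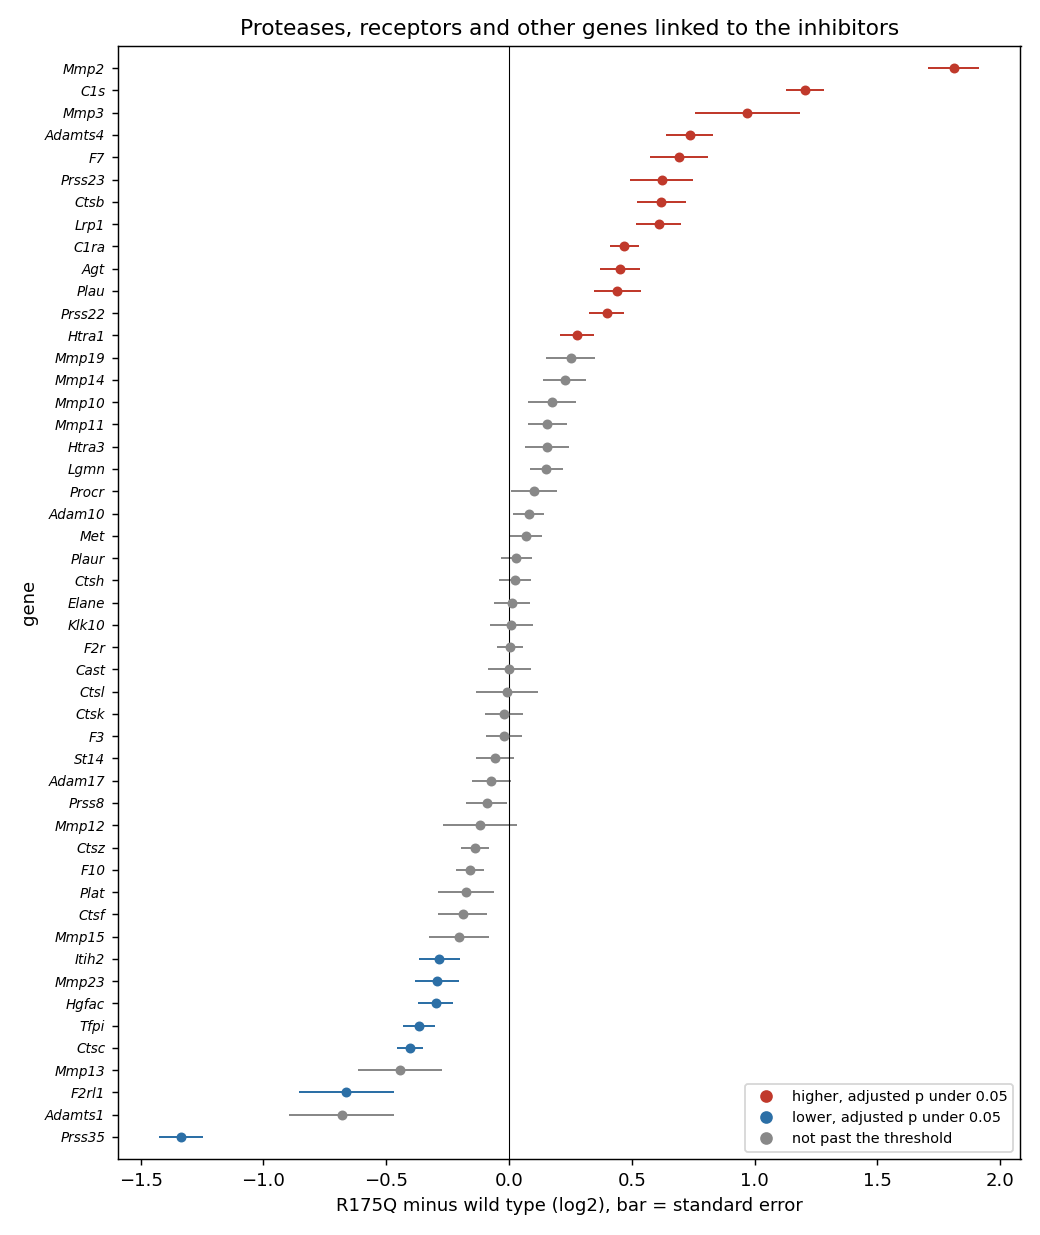
Differences between R175Q and wild type (x axis, log2; bars are standard errors) are ordered by size for the 49 measured proteases, receptors and further inhibitors. Mmp2 at 1.81 and C1s at 1.20 are at the high end and Prss35 at -1.34 at the low end, with most genes near 0.

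With slide as a block 15 of the 19 kept their call, with Serpinb1b, Serpinb6b and Serpinb9e among the 4 losses. With the background fitted to each array's own spots in place of its negative controls, Slpi, Serpinh1 and Spint2 kept their call and 16 did not; Serpina3m then differed by 1.25 and Serpinb2 by -0.27. With the log ratios scaled between arrays 9 of the 19 kept their call, and the losses included Serpinb1b, 9c, 9e, 9f and 9g, Serpinb2, Serpinb6b, Serpine2 and Timp3. Over all 17331 genes the fitted background gave 463 higher and 412 lower, and scaling gave 930 and 965, against 1519 and 1719 in the main setting.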

How the data were processed

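The scanner output came from version 9.5.3.1 of Agilent Feature Extraction, per the file headers. It gives, as deposited, each spot's mean intensity, its median local background intensity and a log10 ratio of Cy5 to Cy3 after the software's own processing. The value table that the authors deposited holds log2 ratios, by comparison with the scanner values of Cy3 over Cy5 (r across oligos 0.902 to 0.941, slope 0.657 to 0.751, column medians 0.0524 to 0.0617); how it was scaled and centred is not given in the sources used here.

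From the intensities, local background was subtracted and normexp was applied with its level and spread taken from the 153 negative control spots of each array and channel (offset 50), then loess within arrays with control spots at weight 0. Fitting normexp to all spots was not used as the main setting: its Cy3 level ran from -690 to -0.369 between arrays, while control medians were 13.1 to 22.7. Spots of an oligo were averaged. Of 39429 oligos, 22960 stood well above background (Cy3) on 4 or more of the 8 arrays, and 111 of these with a value flagged throughout on some array were left out. The brightest oligo of each gene name stood for the gene. Groups came from the labels, and R175Q was compared with wild type in limma 3.58.1 (R 4.3.3; lmFit, eBayes, two-sided, Benjamini-Hochberg over all genes). The procedure was tested on simulated data. GRCm38.p6 names matched 26761 of 28389 accessions and changed no name among the measured inhibitors.

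The members, the lists of proteases and cell type markers and the background method were chosen with earlier results of these data known. Named were every inhibitor and every gene of the protease list past the threshold, and a fixed set of well-known ones whatever their result. Wfdc1, Wfdc12, Wfdc13, Serpinb1a, Serpinb8 and others outside that rule were named after their values were seen. One inhibitor past the threshold and 1 cell type marker are counted but not reported here. The replicate numbers were not taken to pair samples: same-numbered arrays deviated together with r of 0.335, 0.016, 0.482 and 0.051. With 4 arrays in each group, array number limits how small a difference can be seen.

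Alternatives covered the background correction, the scanner's ratio, median centring, Aquantile and scaling between arrays, Cy3 alone, the deposited table, the brightness filter, the oligos of a gene, eBayes with a trend, replicate number and slide as blocks, and each array left out.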

Additional observations from a re-analysis of the deposited data

Results flagged for a closer look

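The 56 groups of 4 arrays examined were those of the reported inhibitors past the threshold and of the fixed set of well-known inhibitors. In 5 of them the highest or lowest array stood apart from the other arrays of its group by more than Dixon's 95% critical value. Chance alone flags about 1 in 20 groups. Other genes named in the text, such as Serpinb1a, Wfdc12, Wfdc13 and the protease list, were not examined in this way. Wild type 3 was low for Serpina3m, at 0.27 against 0.57 for the next array, and for Serpina9, at 0.51 against 1.14. Wild type 2 was low for Serpinb9, at 1.63 against 2.06, and for Timp3, at -4.72 against -4.30. R175Q 3 was high for Serpinb9d, at 2.07 against 1.61.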

How the results depend on the processing

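Of 12 higher and 7 lower inhibitors, the counts were 1 and 2 with normexp fitted to each array, 5 and 4 with the log ratios scaled between arrays, and 0 and 0 with the fitted normexp and slide as a block, where 7 and 5 reached an unadjusted limma p under 0.05. Leaving out single arrays gave 9 to 13 higher and 4 to 7 lower, with 4 lower without R175Q 4, wild type 1 or wild type 4. The protease list, with its receptors and further inhibitors, had 13 higher and 7 lower genes. For that list the same fitted normexp gave 5 and 2, and with slide as a block 0 and 0 (10 and 2 at the unadjusted p). Lower genes of that list numbered 4 without background correction, 4 with the scanner's ratio, 3 with median centring, 2 with scaling and 4 with no filter. Leaving out single arrays gave 12 to 16 higher and 4 to 7 lower genes of the list, with 4 lower without wild type 1 or wild type 4. Median centring turned the split of all genes from 1519 higher and 1719 lower to 2216 and 653, and that of the inhibitors to 14 and 5. Over all 17331 genes the fitted normexp gave 463 higher and 412 lower, beside 1 and 2 of the 46 inhibitors. With slide as a block as well it gave 3 and 3. Scaling gave 930 and 965 over all genes, and leaving out single arrays 1082 to 2034 higher and 1173 to 2011 lower. The replicate block gave 12 higher and 7 lower inhibitors with all 19 calls kept, and same-numbered arrays correlated best with each other for 2 of 4 numbers. The deposited table gave 14 and 8, with all 19 kept. Taking the control spots' median and MAD, an alternative chosen after seeing the data, gave 12 and 8. No called inhibitor changed sign in any of these settings. The cause of the losses was not tested. The difference of Cst9, well above background on 7 of 8 arrays, ran from -1.36 to -0.05 over the alternatives, and that of Serpini1 from -1.06 to -0.29.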
